A study of Solanum tuberosum with 12 samples.

Results

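Tuber periderm of the *StRIK*-RNAi potato line 12 was compared with Wild type periderm, using all 3 libraries of line 12 and all 3 of the Wild type among the 12 libraries of the series. The libraries were taken by their labels, and all 54416 transcripts that the files list entered the comparison. The Wild type was the untransformed tetraploid cultivar Désirée (*Solanum tuberosum*). Line 12 was the same cultivar carrying a hairpin RNAi construct against *StRIK* and a kanamycin resistance marker, and it stands for 1 transformation event, so an effect of the place of insertion or of regeneration cannot be told apart from silencing within it. Lines 9 and 47, with 3 libraries each, carried the same construct in other events and are used here where line 12 differs from them. The tissue of all groups was the skin of freshly harvested tubers, peeled so as to leave the cortical parenchyma behind, from plants grown in soil with equal light and dark periods. Total RNA was sequenced on the Illumina platform. Tubers were harvested when the plants had been in soil for 3 months, and the study calls the replicates biological without saying which plants they came from, so the p-values measure the spread between these libraries.

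The periderm is the outer covering of the tuber, made of corky phellem cells, the phellogen that divides to form them, and the phelloderm. RIK is a protein with the K-homology type of RNA-binding domain found in splicing factor 1. In maize it was identified as a partner of ROUGH SHEATH 2, a MYB factor that takes part in keeping *KNOX* genes silent. RNAi lowers a transcript by cutting it at stretches that match a double-stranded trigger, so the targeted gene is the first measurement to look at.

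The trigger sequence is shown because it decides which isoforms count as targeted. It is a stretch of 246 bases of the coding sequence and takes in the last 21 bases of exon 8, all 118 bases of exon 9 (capitals) and the first 107 bases of exon 10. In the genomic *StRIK* sequence of the study's supplement, counted from the A of the start codon, exon 8 lies at 3568 to 3661, exon 9 at 3808 to 3925 and exon 10 at 4077 to 4593. The exons were rebuilt from that sequence, and the stretch was read at the coding positions that the study states. The cloning primers listed for the construct were found neither in the genomic sequence nor in this stretch, and the reason was not tested. The letters therefore stand for the reference sequence at the stated positions, and the cloned fragment may differ from them.
*StRIK* silencing stretch: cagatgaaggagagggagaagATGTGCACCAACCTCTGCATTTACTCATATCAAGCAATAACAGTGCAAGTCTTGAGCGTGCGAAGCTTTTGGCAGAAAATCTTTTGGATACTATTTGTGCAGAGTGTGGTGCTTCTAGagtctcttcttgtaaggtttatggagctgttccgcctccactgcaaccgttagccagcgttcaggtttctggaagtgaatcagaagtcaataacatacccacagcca
The primer pair below, in lower case with no letters marked, was designed for the assay of *StRIK* across the same place, with the forward primer in exon 8 and the reverse primer complementary to exon 9 inside the stretch.
*StRIK* forward primer: aagaggacgtggttcgggata
*StRIK* reverse primer: agcttcgcacgctcaagac

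Tissue identity could hardly be checked. Ribulose bisphosphate carboxylase large chain read 0 to 2.52 in the Wild type and 1.28 to 4.65 in line 12. These readings do not show how much green tissue was taken, since the transcript read 2.56, 124 and 136 in line 47 replicates 1, 2 and 3. A chlorophyll a-b binding protein read 0 to 5.61 in the Wild type and 11.9 to 13.5 in line 12. It did not overlap between the groups (log2FC 2.16, edgeR adjusted p = 0.305), and its part in the other results was not tested. No table used here pairs identifiers with the names of suberin, patatin or dividing-cell markers. Total effective counts were 18650236 to 20210598 per Wild type library and 18947964 to 20523590 per line 12 library, so that depth was alike. Line 12 replicate 1 stood apart from line 12 replicates 2 and 3. Its correlations with them on the log2 scale over 22250 transcripts were 0.9389 and 0.9284, against 0.9870 between replicates 2 and 3 and 0.9631 with Wild type replicate 3, which in turn correlated less with Wild type replicates 1 and 2 (0.9354 and 0.9231) than those with each other (0.9784).

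*StRIK* abundance in line 12 was about 51.5% of the Wild type. Summed over the 3 isoforms that hold the stretch, it was 88.2, 83.2 and 82.6 CPM (effective counts per 1000000 of the TMM-scaled library size) in Wild type replicates 1, 2 and 3 and 51.1, 42.2 and 37.5 CPM in line 12 replicates 1, 2 and 3. Every line 12 library lay below every Wild type library. The means were 84.7 ± 3.08 CPM and 43.6 ± 6.90 CPM (SD, n = 3 each), and the two-sided exact permutation test gave p = 0.1, the smallest value that 3 libraries against 3 allow.
Line 12 replicate 1 had the highest *StRIK* level of its group, at 60.3% of the Wild type mean, against 49.9% and 44.3% in replicates 2 and 3. Lines 9 and 47 had 59.5 ± 13.5 and 44.6 ± 7.96 CPM (SD, n = 3 each), and an exact permutation test of either line against line 12 gave p = 0.2 for line 9 and p = 1 for line 47. These p-values do not show that the lines were silenced alike.

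The isoforms were also tested singly in the fit across all transcripts. A transcript was called where edgeR's quasi-likelihood test gave a Benjamini-Hochberg adjusted p under 0.05, and none of the 4 isoforms was, although all 4 had an unadjusted p under 0.05. DESeq2 called the 3 targeted isoforms and limma-voom none. The representative isoform PGSC0003DMT400064730 had normalized effective counts (effective counts scaled to a common library size of 19876858) of 589, 519 and 502 in the Wild type and 314, 233 and 225 in line 12. Its log2FC (log2 fold change, line 12 over Wild type) was -1.06 with a standard error (SE) of 0.19 and an adjusted p of 0.0834. Isoform PGSC0003DMT400064729 had a log2FC of -1.01 (edgeR adjusted p = 0.199) and PGSC0003DMT400064731 one of -0.83 (edgeR adjusted p = 0.19). In both, the line 12 libraries lay below all Wild type libraries.
The shortest isoform, PGSC0003DMT400064735, does not hold the stretch. It read 310, 297 and 365 in the Wild type and 268, 197 and 200 in line 12, also without overlap, with a log2FC of -0.55 (edgeR adjusted p = 0.362). The isoforms share sequence, and eXpress apportions shared reads among them, so their values are not independent. In bulk RNA, fewer cells that make a transcript and less of it per cell cannot be told apart.

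**Figure D1:**
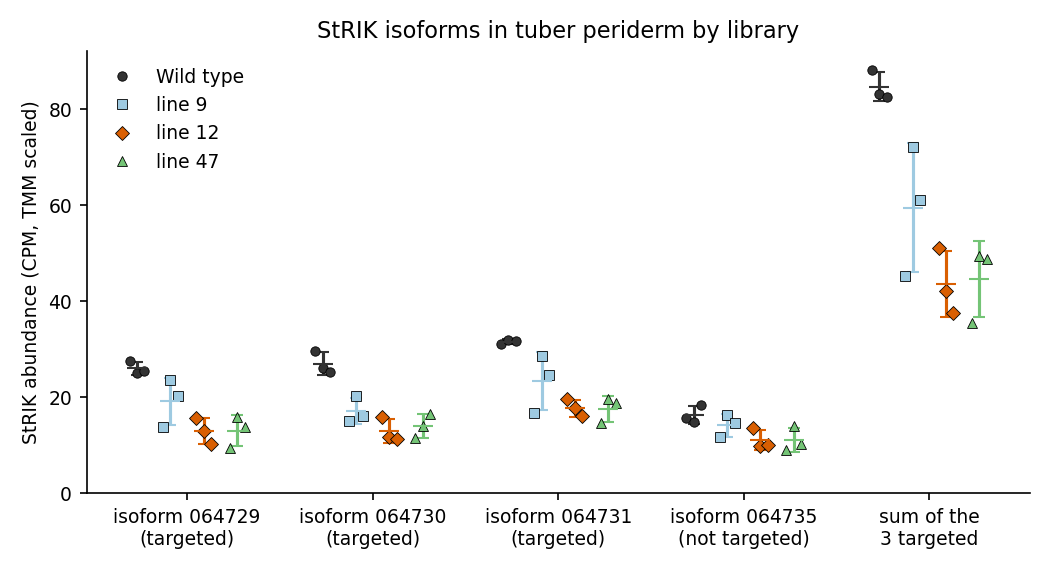
*StRIK* abundance (CPM, TMM scaled, linear axis from 0) in each library for the 4 isoforms, labelled by the last 6 digits of their identifiers, and for the sum of the 3 targeted ones; symbols are libraries, the horizontal mark is the mean and the bar 1 SD (n = 3). In the sum, the line 12 libraries sit between 37.5 and 51.1 CPM, below all Wild type libraries at 82.6 to 88.2 CPM.

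The study listed 7 further transcripts that match the stretch in part, and none of them was called in line 12 (edgeR, 1 at an unadjusted p under 0.05, and none by DESeq2 or limma-voom). EMB1865, the name of 3 of them, gave log2FC values of 0.03, -0.19 and 0.01, the Dnajc14 protein -0.11, an ATP binding protein -0.34 and a conserved gene of unknown function 0.06, all with an edgeR adjusted p of 0.614 or more. EMB1865 is named for an Arabidopsis gene that embryos need. The extensin transcript read 3.32, 1.05 and 1.17 in the Wild type and 0 in every line 12 library, close to the 3 counts that a reading of 0 still allows (edgeR adjusted p = 0.395).

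Across the transcriptome, 21 of 38364 tested transcripts were called in line 12 against the Wild type, which is 0.0547% of those tested. Of these, 17 rose (0.0443%) and 4 fell (0.0104%). At an unadjusted p under 0.05 there were 4292 transcripts (11.2%). TMM scaling centres the log2FC of all tested transcripts near 0, and their median was 0.00, with a median size of 0.27. In all 21 the groups did not overlap, beside 15.4% of all tested transcripts in which they did not. Of the 21, 12 are in the study's list of differential transcripts, which was chosen partly on these Wild type libraries and line 12 replicates 2 and 3, so their presence there is not independent evidence. The called transcripts fell into a few kinds, which were transposon-related transcripts, RNase H family transcripts, protease inhibitor-like transcripts, a stress transcription factor, a transducin and transcripts without a known function.

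The limits of the count are as follows. With the 6 libraries alone in the fit no transcript was called by edgeR (3698 at an unadjusted p under 0.05, and adjusted p between 0.0556 and 0.128 for the 21), against 400 by DESeq2 and 17 by limma-voom on all 12 libraries, and without Wild type replicate 1, Wild type replicate 2, Wild type replicate 3, line 9 replicate 1 or line 12 replicate 2 it was 6, 8, 203, 61 or 13. The files of all Wild type libraries carry in their names the tag 6 and those of line 12 the tag 7, whose meaning the sources used here do not give, so that the tag and the genotype cannot be told apart in this comparison. Line 47 alone has both tags, so a tag term in the fit rests on its replicate 1 (tag 7) against its replicates 2 and 3 (tag 6). In 18 of the 21 transcripts both tag 6 libraries of line 47 lay beyond the Wild type range on the side of line 12, and in 18 its tag 7 library did. With the tag as a covariate all 21 kept their direction and none was called (edgeR adjusted p 0.124 to 0.939), and in line 9, whose libraries all carry tag 7, 5 of the 21 had a library that was not beyond the Wild type range. The same Wild type libraries gave the 21 calls and set this range, so the counts for lines 47 and 9 are a description. Shares over all tested transcripts are not given for them, and an effect of the tag was not tested by them.

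**Figure D2:**
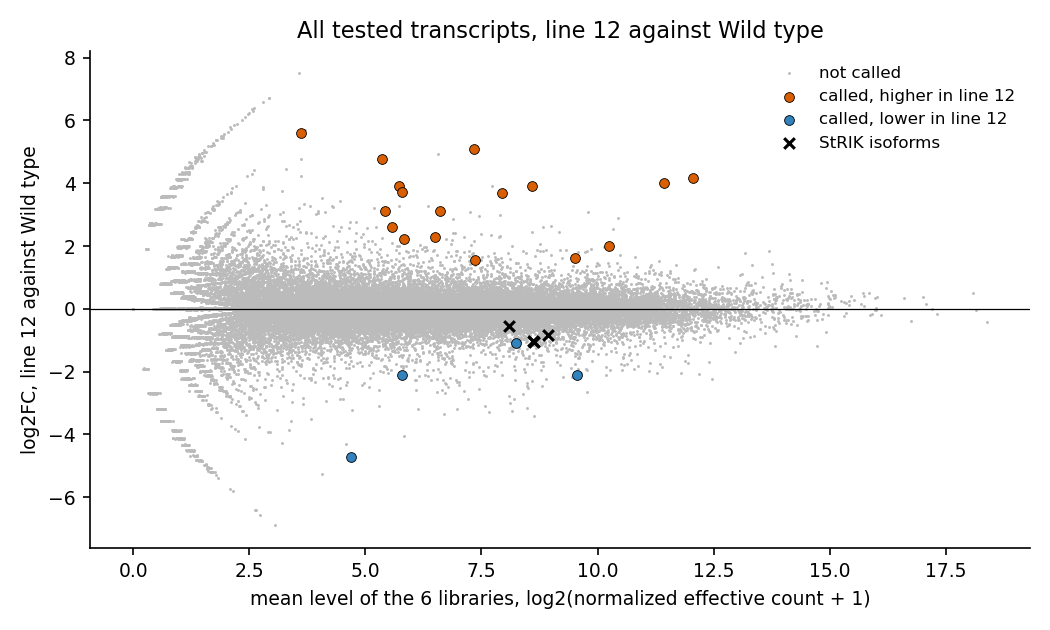
log2FC of line 12 against Wild type for all 38364 tested transcripts (vertical axis) by their mean level over the 6 libraries (log2 of the normalized effective count plus 1). Orange points are the 17 called higher, blue points the 4 called lower, crosses the *StRIK* isoforms, which lie between -1.06 and -0.55.

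Transposon-related transcripts moved in both directions in line 12. Of 6 such transcripts in the study's list, 2 were called higher and 2 lower, and the remaining 2 were not called. Transposases cut and rejoin DNA transposons, and retrotransposons are copied through an RNA intermediate.
A transposase, PGSC0003DMT400039369, read 939, 1505 and 1216 in the Wild type and 261, 285 and 308 in line 12. Its Wild type libraries were more scattered than its line 12 libraries, and all of them stood above line 12. It fell to 23.3% of the Wild type, with a log2FC of -2.10 (SE 0.177, edgeR adjusted p = 0.000906).
A LINE-type retrotransposon, PGSC0003DMT400092517, read 59.8, 45.8 and 39.8 in the Wild type. In line 12 it read 0.798, 0.902 and 2.82, at or under the floor of 3 counts in every library, and so it was at least 16.2-fold lower, the floor being taken per library (edgeR adjusted p = 0.0137). LINE elements are retrotransposons without long terminal repeats.
In the other direction, the retrotransposon protein PGSC0003DMT400041204 read 14, 63.3 and 28.1 in the Wild type and 487, 464 and 421 in line 12, a rise of 13-fold (log2FC 3.69, SE 0.39, edgeR adjusted p = 0.00433). The second transposase, PGSC0003DMT400003803, read 4.53, 13.2 and 2.24 in the Wild type and 125, 87.8 and 81 in line 12, a rise of 14.7-fold (log2FC 3.90, SE 0.453, edgeR adjusted p = 0.0087). In both, Wild type replicate 2 was the highest of its group and still far below line 12. The calls of PGSC0003DMT400039369 and PGSC0003DMT400041204 were kept when any 1 of the 12 libraries was left out, that of PGSC0003DMT400003803 was lost without Wild type replicate 1, and that of the LINE-type retrotransposon without Wild type replicate 1 or 2 or line 12 replicate 1 or 2.
Of the 2 that were not called, the MuDR mudrA transposon PGSC0003DMT400085583 was at 0 in every Wild type library and at 6.01, 8 and 5.91 in line 12. The TNP2 transcript had a log2FC of -3.04 (edgeR adjusted p = 0.357).

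RNase H family transcripts, whose products cut the RNA strand of RNA-DNA hybrids or are related to that fold, gave 2 calls, both higher. PGSC0003DMT400063700 read 23.8, 87.8 and 32.2 in the Wild type and 823, 712 and 639 in line 12. It rose 15.1-fold (log2FC 3.90, SE 0.381, edgeR adjusted p = 0.00308). PGSC0003DMT400073611 read 217, 438 and 429 in the Wild type and 1184, 1092 and 1022 in line 12, a rise of 3.04-fold (log2FC 1.61, SE 0.226, edgeR adjusted p = 0.0229).
Wild type replicate 1 was the lowest of its group in both, and no Wild type library reached the level of line 12. A call of the first was kept when any 1 of the 12 libraries was left out, and a call of the second was lost without Wild type replicate 2, any of the line 12 libraries or line 47 replicate 3.
Of the 3 other RNase H transcripts, PGSC0003DMT400016670 read 13.7, 41.2 and 24.3 in the Wild type and 92.4, 93.3 and 92 in line 12 (edgeR adjusted p = 0.0725). PGSC0003DMT400063698 was at 0 in all Wild type libraries and at 6.86, 17.7 and 14.8 in line 12 (edgeR adjusted p = 0.125), which is at least 4.38-fold higher against the floor. PGSC0003DMT400022247 was on the other side, at 67.0 ± 3.14 in the Wild type and 29.0 ± 14.1 in line 12 (SD, n = 3 each, without overlap, edgeR adjusted p = 0.253). Its direction was thus opposite to that of the other 4.

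Among the 7 remaining transcripts of RNA metabolism and splicing, edgeR called none (3 at an unadjusted p under 0.05) and DESeq2 called 1. The pre-mRNA-splicing factor syf2, PGSC0003DMT400027449, named for a component of the spliceosome, read 33.8, 36.1 and 29.4 in the Wild type and 102, 75.9 and 62 in line 12 (log2FC 1.27, edgeR adjusted p = 0.0855). An RNA binding protein, PGSC0003DMT400006660, whose closest Arabidopsis protein is of the RNase III family, read 97.3, 102 and 79.4 against 131, 145 and 153 (log2FC 0.62, edgeR adjusted p = 0.272). Neither transcript overlapped between the groups.
The 4 transcripts named rRNA intron-encoded homing endonuclease, after enzymes that cut DNA at intron insertion sites, had log2FC values between -0.08 and 0.09 in line 12. With the tag as a covariate all 4 were called higher, at 4.77 to 5.27 (edgeR adjusted p 0.0215 to 0.031). That tag term rests on line 47, the only group with both tags. There PGSC0003DMT400094705 read 441 in replicate 1 and 18360 and 16082 in replicates 2 and 3. It read 727, 401 and 415 in line 12 and 663, 472 and 432 in the Wild type. The 8 rRNA-like transcripts together took 0.0427% to 0.117% of the counts of a line 12 library and 0.0445% to 0.0736% of those of a Wild type library. Over the whole category of 12 transcripts, 2 were called higher and none lower.

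A pair of called transcripts has its closest Arabidopsis protein in the Kunitz family of trypsin and protease inhibitors, small proteins that block proteases and are abundant in potato tubers, and both rose. The Nb cell death marker transcript PGSC0003DMT400026261 read 190, 269 and 510 in the Wild type and 3840, 4627 and 7037 in line 12, a rise of 16-fold (edgeR adjusted p = 0.00938). PGSC0003DMT400026262 read 414, 564 and 378 in the Wild type and 2717, 9210 and 12318 in line 12, a rise of 17.9-fold (log2FC 4.16, SE 0.542, edgeR adjusted p = 0.0137).
In both, line 12 replicate 1 was the lowest of its group and Wild type and line 12 did not overlap. The call of the first was lost without Wild type replicate 1 or Wild type replicate 2, and that of the second without either of these or line 12 replicate 2 (edgeR). A called transcript without a name, whose identifier adjoins this pair, read 387, 371 and 710 in the Wild type and 2382, 1704 and 1777 in line 12 (log2FC 2.00, edgeR adjusted p = 0.0126).
The other 3 transcripts listed under proteolysis were not called. PGSC0003DMT400024552, of unknown function, read 5.18, 1.24 and 3.95 against 39.1, 15.8 and 47 (edgeR adjusted p = 0.0725). An F-box family protein, PGSC0003DMT400040325, the family that picks substrates for ubiquitin ligases, read 17.1, 13.5 and 20.2 against 1.4, 1.57 and 1.64 (edgeR adjusted p = 0.125), at least 5.65-fold lower against the floor. Both were without overlap.

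The dehydration responsive element binding protein (DREB), PGSC0003DMT400061541, rose 25.7-fold. DREB factors switch on genes of the drought, heat and cold response, and the closest Arabidopsis gene is *DREB2A*. It read 2.26, 2.19 and 4.56 in the Wild type and 116, 34.7 and 81.4 in line 12 (log2FC 4.77, SE 0.599, edgeR adjusted p = 0.0126). Line 12 replicate 2 was well under the other line 12 libraries and still above the Wild type, and the call was lost without Wild type replicate 1 or Wild type replicate 2.
It was the 1 called of 12 transcripts listed under stress. The inward rectifying K+ channel, PGSC0003DMT400024872, a channel type that takes potassium into plant cells, read 1.53, 0 and 0 in the Wild type and 12.8, 3.15 and 13 in line 12 (edgeR adjusted p = 0.152), at least 3.21-fold higher against the floor. The 11S globulin, PGSC0003DMT400026705, a seed storage protein, read 6.18, 0.854 and 0.895 against 21.8, 13.5 and 16.1 (edgeR adjusted p = 0.174).
Another 3 transcripts, lower in every line 12 library than in the Wild type, missed the threshold. The LOB domain-containing protein 41, PGSC0003DMT400032938, a factor that Arabidopsis induces under low oxygen, read 14329, 12776 and 7123 in the Wild type and 3058, 5800 and 4316 in line 12 (log2FC -1.38, edgeR adjusted p = 0.229). PGSC0003DMT400049546, whose Arabidopsis relative belongs to a wound-responsive family, read 2707, 3153 and 1547 against 993, 1159 and 1116 (log2FC -1.18, edgeR adjusted p = 0.229). The heat shock protein binding protein PGSC0003DMT400081406 read 188, 80.5 and 84.9 against 52.1, 53.3 and 34.5 (log2FC -1.35, edgeR adjusted p = 0.279).
The 25 kDa dehydrin, PGSC0003DMT400025812, a hydrophilic protein that accumulates in drying or cold cells, read 58548, 56464 and 57988 in the Wild type and 76944, 77475 and 72156 in line 12. The groups were apart by a factor of 1.31 (log2FC 0.39, edgeR adjusted p = 0.491).

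A transducin, PGSC0003DMT400054501, a WD40 repeat protein by its Arabidopsis relative, fell to 46.7% of the Wild type. It had 412 ± 55.3 in the Wild type and 193 ± 31.2 in line 12 (SD, n = 3 each, without overlap, log2FC -1.10, SE 0.158, edgeR adjusted p = 0.0274). Its call was kept in 4 of the 12 fits that leave out 1 library and was lost without Wild type replicate 1 or 2, line 9 replicate 2 or 3, line 12 replicate 2 or 3, or line 47 replicate 1 or 3.
Of the 3 transducin transcripts with adjoining identifiers, PGSC0003DMT400054499 had a log2FC of -1.15 (edgeR adjusted p = 0.0529), PGSC0003DMT400054498 one of -0.95 (edgeR adjusted p = 0.0579) and PGSC0003DMT400054500 one of -1.01 (edgeR adjusted p = 0.0592). They lay just outside the threshold, as did the signal transducer PGSC0003DMT400047864 and the glucosyltransferase PGSC0003DMT400070122, both with an edgeR adjusted p of 0.0529. The glucosyltransferase, of the enzymes that attach glucose to small molecules, read 3.23, 7.29 and 6.6 in the Wild type and 27.8, 25.3 and 26.5 in line 12. The signal transducer, whose Arabidopsis relative is of the NPH3 family named for phototropism, read 5.08, 6.18 and 5.15 against 23.4, 20.9 and 38.2.

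Of the called transcripts without a known function, 2 are in the study's list. PGSC0003DMT400023873, a conserved gene of unknown function, read 1.43, 22.1 and 4.28 in the Wild type and 366, 327 and 250 in line 12 (33.8-fold, log2FC 5.08, SE 0.518, edgeR adjusted p = 0.00365). PGSC0003DMT400041194 read 0, 1.14 and 0 in the Wild type, at the floor, and 27, 28.1 and 11.3 in line 12, at least 7.38-fold higher (edgeR adjusted p = 0.0137). Wild type replicate 2 was the highest of its group in both.
The other 9 called transcripts have no name in the sources used here. Of these 8 rose, with log2FC values from 1.55 to 3.72, and 1 fell. The one that fell, PGSC0003DMT400060016, read 68.1, 119 and 76.2 in the Wild type and 17.9, 21.5 and 22.1 in line 12, 23.3% of the Wild type (log2FC -2.10, SE 0.298, edgeR adjusted p = 0.0233).

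**Figure D3:**
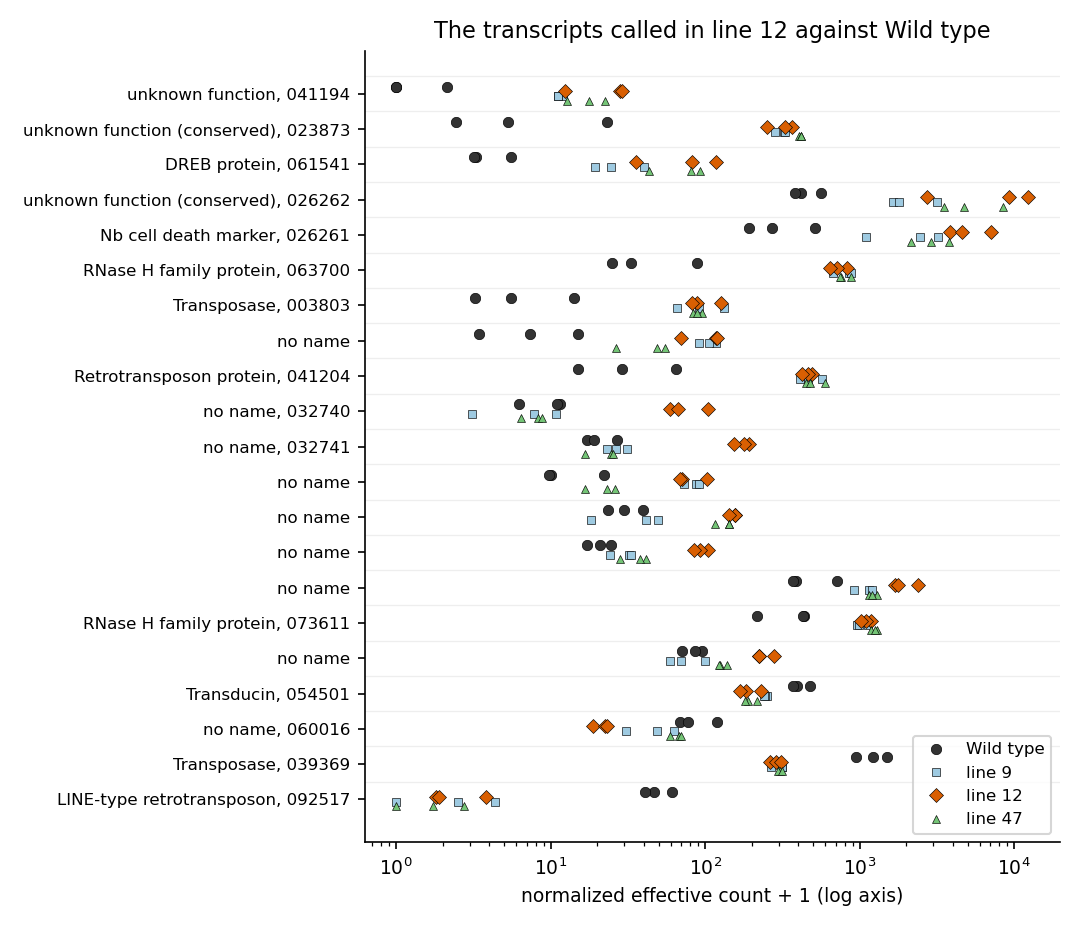
Normalized effective counts plus 1 (log axis) of the 21 transcripts called in line 12 against Wild type, in all 12 libraries, ordered by log2FC from 5.60 at the top to -4.71 at the bottom; each symbol is a library, and numbers are the last 6 digits of the identifiers. In each row the Wild type circles and the line 12 diamonds do not overlap.

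In the study's list as a whole, line 12 separated from the Wild type far more often than it was called. Of 101 listed transcripts 100 were tested, and 12 of them were called, 9 higher and 3 lower. All 3 line 12 libraries were above the Wild type in 44 and below it in 25 of the 100, beside 8.37% and 7.07% of all tested transcripts, a description since the list was chosen partly on these libraries. The median log2FC was 0.51 and the median size 2.06, beside 0.00 and 0.27 over all tested transcripts.
By category, the groups did not overlap in 6 of 6 transposon-related transcripts, 5 of 5 under proteolysis, 12 of 12 under signaling, 4 of 4 under acyl lipid metabolism, 8 of 12 under RNA metabolism and splicing, 8 of 12 under stress, 3 of 11 under metabolism and 23 of 38 others. Signaling held 1 call, a lower one, with a median log2FC of 1.54. Acyl lipid metabolism held none by edgeR (3 of 4 at an unadjusted p under 0.05, 1 by DESeq2), with a median of 2.20, and its ubiquitin-conjugating enzyme variant PGSC0003DMT400057213, the name of a gene whose Arabidopsis relative is a palmitate desaturase, read 18, 11.6 and 19.5 against 64.6, 33.7 and 46.6 (edgeR adjusted p = 0.173). A subunit of acetyl-CoA carboxylase, PGSC0003DMT400042102, the enzyme that opens fatty acid synthesis, read 2.97, 0 and 0 against 8.19, 9.05 and 6.33 (edgeR adjusted p = 0.259), at least 2.62-fold higher against the floor. The groups did not overlap in either. Metabolism held none by edgeR (4 of 11 at an unadjusted p under 0.05, 2 by DESeq2), with a median of 0.51, and after the glucosyltransferase its lowest p belonged to a beta-amylase, PGSC0003DMT400052839, an enzyme that breaks starch down to maltose, which read 0, 1.05 and 1.1 against 41, 21.2 and 3.5 (edgeR adjusted p = 0.189). Line 12 replicate 3 was close to the Wild type there.
Others of this category are abundant. The phenylpropanoid enzymes phenylalanine ammonia-lyase, 2 transcripts with log2FC values of 0.51 and -0.18, and peroxidase, -0.03, did not pass the test (edgeR adjusted p of 0.621 or more). Their groups overlapped.

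**Figure D4:**
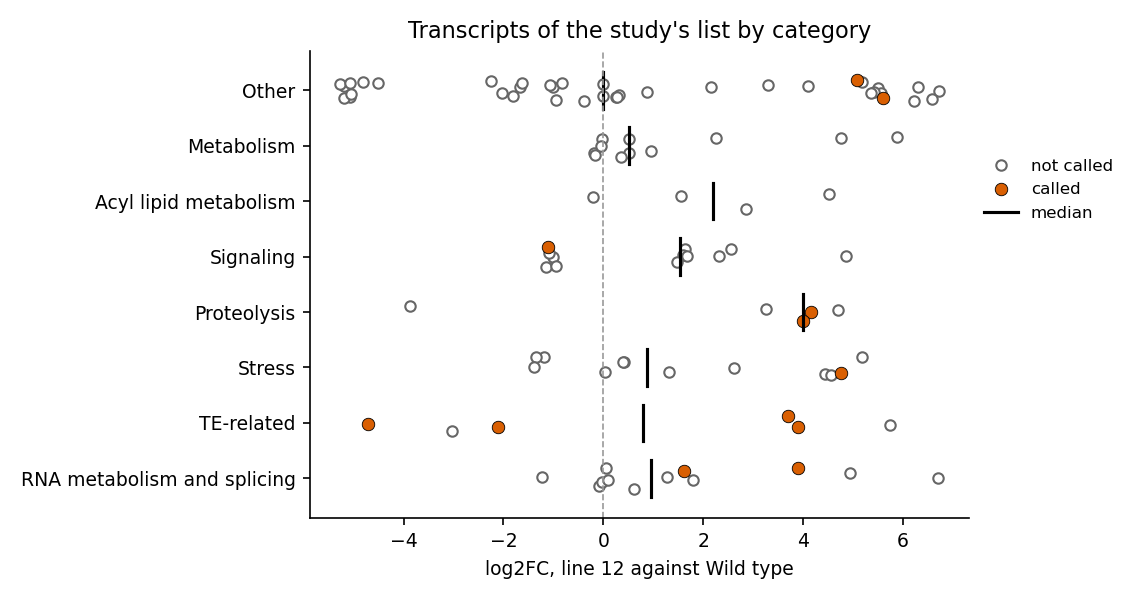
log2FC of line 12 against Wild type for the 100 tested transcripts of the study's list, by its categories; filled orange points were called, open points were not, and the black bar is the category's median. The 12 called transcripts lie between -4.71 and 5.60, and the median of proteolysis is the highest.

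The study's list gives values for line 12 replicates 2 and 3 and none for replicate 1, so replicate 1 can be set beside the others there. The study kept RNAi libraries with *StRIK* under 2/3 of the Wild type. By the sum of targeted isoforms used here, replicate 1 stood at 60.3%, which is under that limit. Why the study's measure and this one differ was not tested. Of 47 listed transcripts in which line 12 replicates 2 and 3 were above every Wild type library, replicate 1 was above too in 44 (93.6%). Of 32 in which they were below, replicate 1 was below in 25 (78.1%), and without the *StRIK* isoforms in 22 of 29. Over all tested transcripts line 12 replicates 2 and 3 were above in 5789 (15.1%) and below in 4604 (12.0%), and replicate 1 joined them in 55.5% and 58.9% of these. The Wild type libraries are the same in both, so the shares are a description. Without line 12 replicate 1 and Wild type replicate 3, which stand apart from their groups, 25 transcripts were called, of which 13 were among the 21 and 8 in the list (edgeR).

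On and off differences were few and small. No transcript was at exactly 0 in all libraries of one group and at 10 or more normalized counts in each library of the other. At 5 or more normalized counts there were 7, all present in line 12 and at 0 in the Wild type, and 6 of them are in the study's list. Among them was PGSC0003DMT400011542, of unknown function, at 8.56, 18.9 and 11.8 in line 12 (edgeR adjusted p = 0.0603). With the floor of 3 counts in place of 0, and 10 or more in the other group, 3 were present in line 12 and 3 in the Wild type. Of these 6, the LINE-type retrotransposon and PGSC0003DMT400041194 were called, and PGSC0003DMT400041119, of unknown function, went from 23.5, 34 and 35.5 in the Wild type to 2.1, 0 and 0 (edgeR adjusted p = 0.0753).

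The named transcripts were also set beside the other *StRIK*-RNAi lines. Of the study's list, edgeR called no transcript in line 12 against line 9 or against line 47. Against line 9, 23 of 100 had an unadjusted p under 0.05 by edgeR, and DESeq2 called 4 and limma-voom 1. Against line 47 these numbers were 19, 12 and 1. Over all 38364 tested transcripts, 3718 against line 9 and 2856 against line 47 had an unadjusted p under 0.05 (edgeR). The list was chosen partly on libraries of these lines, so these counts are a description. The transposase PGSC0003DMT400039369 had a log2FC against the Wild type of -2.10 in line 12, -2.03 in line 9 and -2.01 in line 47, and the retrotransposon protein PGSC0003DMT400041204 of 3.69, 3.77 and 3.85. The RNase H transcript PGSC0003DMT400063700 gave 15.1-fold in line 12, with means of 725, 802 and 791 normalized counts in lines 12, 9 and 47 and 47.9 in the Wild type. The DREB transcript PGSC0003DMT400061541 had log2FC values of 4.77, 3.25 and 4.64 in lines 12, 9 and 47, with means of 77.3, 27.1 and 71.2 normalized counts. In line 9 it was not called against the Wild type (edgeR adjusted p = 0.155). The 3 comparisons share their Wild type libraries.
Tested directly against line 12, these 4 had log2FC values between -0.15 and 1.52 and an edgeR adjusted p of 0.338 or more, which does not show that the lines were equal.

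The transcripts that edgeR called between line 12 and another line have no names in the sources used here. Against line 9, 14 of 38364 were called (0.0365%), 11 higher (0.0287%) and 3 lower (0.00782%) in line 12, and against line 47, 9 were called (0.0235%), 4 higher (0.0104%) and 5 lower (0.0130%). DESeq2 called 280 against line 9 and 169 against line 47. Against line 47, edgeR called 36 with the libraries of both lines alone and 39 without line 47 replicate 1, of which 10 are in the study's list.
PGSC0003DMT400032741 was called against all 3 other genotypes. It read 192, 177 and 152 in line 12, 25.8, 16.2 and 18.1 in the Wild type, 25.3, 30 and 22.3 in line 9 and 23.6, 24.2 and 15.7 in line 47. It was 8.67-fold the Wild type (log2FC 3.12, SE 0.245, edgeR adjusted p = 0.00081). No library outside line 12 passed 30, and an effect of the tag was not tested.
PGSC0003DMT400032740, with the adjoining identifier, read 103, 58.2 and 65.3 in line 12 and no more than 10.4 in any other library (8.85-fold the Wild type, log2FC 3.13, SE 0.414, edgeR adjusted p = 0.0137). The call of PGSC0003DMT400032740 was lost without Wild type replicate 1, Wild type replicate 2 or line 12 replicate 1. The call of PGSC0003DMT400032741 was kept when any 1 library was left out.
PGSC0003DMT400096877 was the reverse case. It read 34, 24.2 and 33.2 in line 12, close to 31, 42.2 and 28.7 in the Wild type (log2FC -0.17, edgeR adjusted p = 0.842). It read 283, 253 and 257 in line 9 and 203, 308 and 202 in line 47, with a log2FC of line 12 of -3.11 against line 9 (edgeR adjusted p = 0.000217) and -2.95 against line 47 (edgeR adjusted p = 0.00049).
PGSC0003DMT400056809 read 3.73, 4.67 and 8.51 in line 9, 84.3, 84.7 and 72.5 in line 12 and 130 ± 12.1 in the Wild type (SD, n = 3). Line 12 lay between line 9 and the Wild type without overlap, with a log2FC of 3.75 against line 9 (edgeR adjusted p = 0.000217) and -0.69 against the Wild type (edgeR adjusted p = 0.28). PGSC0003DMT400024248 read 167, 131 and 121 in line 47 and 8.43, 4.83 and 6.72 in line 12, beside 6.34, 7.65 and 6.26 in the Wild type (log2FC -4.32 against line 47, edgeR adjusted p = 0.00128). In 10 of the 14 called against line 9 and 4 of the 9 called against line 47, the line 12 libraries also lay entirely outside the Wild type range, beside 15.4% of all tested transcripts. The line 9 libraries did so in 8 of the 14, and the line 47 libraries in 7 of the 9. The 15.4% is for line 12, and no share over all tested transcripts is given for lines 9 and 47. The sets were called on the same libraries of these lines, so these counts are a description.
Line 47 replicates 2 and 3 held 1.60% and 1.19% of their counts in the rRNA-like transcripts, against 0.0427% to 0.117% in line 12. Leaving out the rRNA-like transcripts left 9 calls against line 47. Leaving out these 2 libraries left 1 call, with a single library for line 47, which is then assumed to vary like the other groups.

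**Figure D5:**
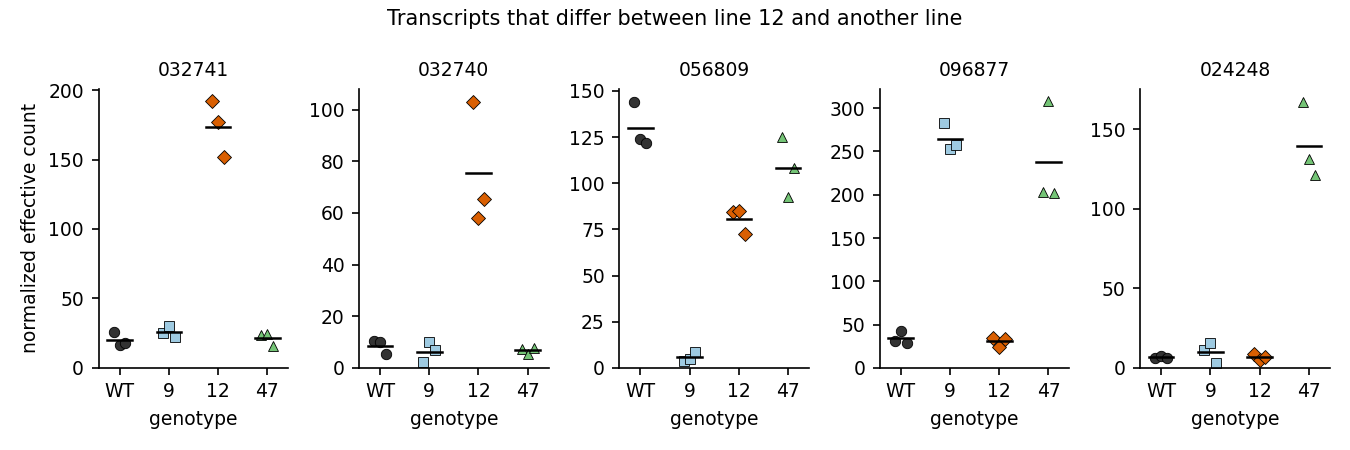
Normalized effective counts (linear axes from 0) in all 12 libraries for 5 transcripts that were called between line 12 and another line, labelled by the last 6 digits of the identifiers; points are libraries, the line is the mean of 3, and WT is the Wild type. In the panels of PGSC0003DMT400032741 and PGSC0003DMT400032740 line 12 stands alone, at 152 to 192 and 58.2 to 103.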

How the data were processed

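The authors used Bowtie 2 for alignment to the transcripts of the Phureja potato genome and deposited 1 table per library of effective counts, the estimated counts per transcript that eXpress 1.5.1 gives after correction for fragment length and bias, not scaled between libraries. FastQC 0.11.2 and Cufflinks are also named in the submitters' processing notes. Libraries were made with a TruSeq kit. Here effective counts were rounded, those summing to 10 or more in the 12 libraries were kept (38364 transcripts), library sizes were scaled by TMM, and the 4 genotypes were fitted together with edgeR 4.0.16 (glmQLFit, glmQLFTest, limma 3.58.1, R 4.3.3), contrasting line 12 with each other group, with Benjamini-Hochberg adjustment over all tested transcripts. The study used baySeq on pooled lines, which was not used here. *StRIK* was compared by exact permutation tests (Python 3.11.15, scipy 1.17.1). DESeq2 1.42.0, limma-voom, other scaling, filters, a tag covariate, a replicate block and left-out libraries were tried, and leaving out 2 libraries together was chosen after seeing the data. The fits were tested on simulated data with 200 transcripts changed in line 12. False calls were 7 of 143 with edgeR, 62 of 222 with DESeq2 and 9 of 146 with limma-voom. With nothing changed, the calls were 0, 19 and 0. Of changes with a log2FC of 1 in size, edgeR recovered 24.3%, DESeq2 51.4% and limma-voom 24.3%.

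A group with every library at or under 3 normalized counts was taken as the floor, which covers counting error only. Names and categories come from the study's list; the files do not pair the other identifiers with names, so 9 called transcripts have none. A reference gene table for potato matched no identifier. Transcripts of 1 gene or gene family can share reads that eXpress splits. The members and lists were chosen with earlier results of these data known. Named are the *StRIK* isoforms, the partial matches, the assayed transcripts, all called transcripts, those of the list with the lowest p per category, and those outside it or called between lines with the lowest p, of which at most 2 unnamed per direction and comparison are printed. Further transcripts of the list under RNA metabolism, transposons, stress, proteolysis, signaling and unknown function were named after their values were seen.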

Additional observations from a re-analysis of the deposited data

Results flagged for a closer look

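Some transcripts had a different level in line 12 than in another *StRIK*-RNAi line by the direct test between the lines (edgeR quasi-likelihood test, Benjamini-Hochberg adjustment, 3 libraries a line). PGSC0003DMT400032741 was higher in line 12, with a log2FC of 2.73 against line 9 (adjusted p = 0.000842) and 3.04 against line 47 (adjusted p = 0.00049). PGSC0003DMT400032740 was higher with a log2FC of 3.53 against line 9 (adjusted p = 0.0129) and 3.46 against line 47 (adjusted p = 0.0153). PGSC0003DMT400056809 was higher by 3.75 against line 9 (adjusted p = 0.000217). PGSC0003DMT400096877 had a log2FC of -3.11 against line 9 (adjusted p = 0.000217) and -2.95 against line 47 (adjusted p = 0.00049), and PGSC0003DMT400024248 one of -4.32 against line 47 (adjusted p = 0.00128). In each of these comparisons all 3 line 12 libraries lay on one side of all 3 libraries of the other line. The transcripts were picked by their low p on these same libraries, so this is a description. Shares over all tested transcripts are not given for it.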

How the results depend on the processing

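The 21 transcripts called in line 12 against the Wild type kept their direction in every alternative tried, but the number called moved. It was 400 with DESeq2 (39 in the study's list against 12), 0 with the 6 libraries of both groups alone (0 in the list), 7 with the tag as a covariate (5 in the list, 4 of the 7 being rRNA-like, none among the 21) and 11 with the replicate number as a block. Leaving out 1 library gave 6 to 203 calls, with 5 to 19 in the list. Line 12 against line 9 (14 calls) gave 280 with DESeq2, 3 with both groups alone, 5 with the replicate block, 9 with the tag, and 6 to 22 with 1 library left out. Line 12 against line 47 (9 calls) gave 169 with DESeq2, 36 with both groups alone, 6 with the replicate block, 5 with the tag, 1 without line 47 replicates 2 and 3 together (line 47 is then a single library, assumed to vary like the other groups), and 5 to 39 with 1 library left out. The causes were not tested. With RLE size factors, no minimum count, filterByExpr, limma-voom or without the rRNA-like transcripts these counts stayed within 1.5 times. Transcripts at 0 in one group and present in the other were 7 at 5 or more normalized counts and 6 with the floor, against 0.

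The labels do not say whether the replicate numbers pair the libraries, and with 3 libraries a group the correlations below cannot decide it. Deviations from the group means of line 12 and Wild type libraries with the same number correlated at -0.465, 0.59 and -0.465, and Wild type replicate 3 and line 12 replicate 1 at 0.67. Pairing by number cannot change the 51.5% for *StRIK*, and its exact permutation p was 0.25, the smallest that 3 pairs allow. Leaving out any 1 library moved that share by less than the spread between replicates. Of 62 transcripts given with values against the Wild type, 51 kept their direction in every alternative. The other 11 were not called.

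The tag term rests on line 47 alone, since no other group has both tags. With the tag, log2FC reversed to 4.94 and 5.27 in 2 homing endonuclease transcripts (PGSC0003DMT400071451 and PGSC0003DMT400094705, both then called), -0.23 in the conserved gene that matches the stretch in part, 0.01 in Dnajc14, -0.11 in 1 phenylalanine ammonia-lyase and 0.16 in PGSC0003DMT400096877. It reversed without Wild type replicate 3 and line 12 replicate 1 to -0.45 and -0.30 in the other homing endonucleases, PGSC0003DMT400085242 and PGSC0003DMT400091537, and 0.16 in peroxidase, and with limma-voom to -0.01 in PGSC0003DMT400085242. With 1 library left out, the conserved gene ranged from -0.04 to 0.14, 2 EMB1865 transcripts from -0.15 to 0.33 and -0.13 to 0.13, peroxidase from -0.13 to 0.10, PGSC0003DMT400096877 from -0.27 to 0.01, and the homing endonucleases from -0.58 to 0.18 (PGSC0003DMT400071451), -0.39 to 0.24 (PGSC0003DMT400085242), -0.37 to 0.19 (PGSC0003DMT400094705) and -0.22 to 0.29 (PGSC0003DMT400091537). The causes were not tested.

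With 3 libraries a group, transcripts near the floor of 3 counts could not be separated from 0, and on-and-off differences are limited by that depth.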
